A study of Mus musculus with 583 samples.

Results

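The replication-dependent histone genes are the clustered gene copies that encode the bulk histones H1, H2A, H2B, H3 and H4. Members were the rows of the count table that GENCODE M21 annotates as protein-coding and whose symbol begins with Hist1h, Hist2h, Hist3h or Hist4h, which gave 59 of 38924 mouse genes. They comprised 6 H1, 18 H2A, 15 H2B, 7 H3 and 13 H4 genes. Of these, 47 lie in the Hist1 cluster on chromosome 13, 9 in the Hist2 cluster on chromosome 3, 2 in the Hist3 cluster on chromosome 11, and Hist4h4 lies on chromosome 6. A further 8 annotated genes that match the rule were not analysed here.

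The study compared 6 single-cell RNA sequencing methods on J1 mouse embryonic stem cells, an established line kept in the ground state of pluripotency with 2i/LIF medium. Smart-seq / C1 and Smart-seq2 sequence fragments along the whole transcript and give read counts. The other methods sequence a tag near the 3' end and count unique molecular identifiers (UMIs). Amplification is by in vitro transcription in CEL-seq2 and MARS-seq, and by PCR in Drop-seq and SCRB-seq. Each method has replicates A and B, which makes 4 full-length libraries of 287 cells and 8 tag libraries of 296 cells. The labels do not say whether A and B were separate cultures, so every p-value measures only the spread between these libraries.

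Histone mRNAs of this class accumulate while DNA is copied in S phase and are degraded when replication ends. They normally lack the poly(A) tail of other animal mRNAs: the transcript is cut just after a short stem-loop, which is bound by the stem-loop binding protein Slbp and processed with the U7 small nuclear ribonucleoprotein. All 6 methods start reverse transcription from an oligo(dT) primer, which pairs with runs of adenine.

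The stem-loop was present in the genome within 150 bases after the stop codon of 56 of the 59 members, and the exceptions were Hist1h2bp, Hist2h2be and Hist1h4a. The stop codon was that of the longest annotated transcript where it has one. For Hist1h2bp this transcript has 2 exons and 414 coding nt, against 378 in Hist1h2bj. A stem-loop after another stop codon of the gene was not searched for. The stem opened with GGCTCT in 44 members, which were all 6 H1, all 18 H2A, 13 H2B and all 7 H3 genes, while the 12 H4 genes with a stem-loop opened with GGCCCT in 10 cases and GGTCCT in 2 cases. What set members apart was the sequence just before it. The annotated transcript ended before the end of the stem-loop in 14 members, within 100 bases after it in 20 and further downstream in 22. The 30 bases that end with the stem-loop are shown for 3 H2A genes with long runs of adenine there, for a close H2A relative without one, and for the H1 and H4 genes with the highest levels, each 5' to 3' on the gene's own strand in the GRCm38 genome, with the stem-loop in capitals.
Hist1h2ao, chr13:21810884-21810913, plus strand: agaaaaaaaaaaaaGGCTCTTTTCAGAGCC
Hist1h2ap, chr13:21833029-21833058, minus strand: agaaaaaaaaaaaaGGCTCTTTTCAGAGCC
Hist1h2ae, chr13:23570668-23570697, minus strand: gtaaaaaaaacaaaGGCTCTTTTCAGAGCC
Hist1h2ag, chr13:22042483-22042512, minus strand: tgatcgccaacaaaGGCTCTTTTCAGAGCC
Hist1h1b, chr13:21779837-21779866, minus strand: aacaaagccccaaaGGCTCTTTTCAGAGCC
Hist1h4d, chr13:23581936-23581965, plus strand: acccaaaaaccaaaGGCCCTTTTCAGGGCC
Hist1h2ao and Hist1h2ap alone carried a run of 12 adenines directly before the stem-loop, and 16 of the 20 bases before it were adenine. Over the 56 members this number of adenines ran from 3 to 16 with a median of 8. The next longest run between stop codon and stem-loop was 8, in Hist1h2ae.

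Many members are near copies of one another, so the authors' counting could split or drop their reads. Of the 59 members, 34 shared at least 50% of their 31-base words with another annotated gene. Hist1h2ao (480 nt) and Hist1h2ap (482 nt) aligned over 452 nt with 0 mismatches and shared 93.8% and 93.4% of their words, so the division of counts between them is uncertain and their sum is given as well. Hist1h2br shared 89.4% of its words with Hist1h2bq, and Hist1h2bq shared 98.2% with Hist1h2br. Levels of these genes are uncertain for the same reason. In the annotation every H2A member overlapped an exon of another gene, mostly on the opposite strand. Examples are Hist1h2ao with Gm19658 and Hist1h2ap with Gm44466. Few members of the other types had such an overlap. Whether counting used strand is not stated, so H2A reads may have been dropped, and the part of this in the H2A levels was not tested.

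Totals ran from 17630767 to 34984056 mouse reads in the full-length libraries and from 583302 to 2784441 UMIs in the tag libraries. The 10 embryonic stem cell markers summed to between 3329 and 7345 CPM (counts scaled to the library's total, with TMM scaling) in every library. The 8 primitive endoderm markers summed to between 125.8 and 540.8 CPM, and the 10 fibroblast markers, of which 2 were at 0 throughout, to between 275.5 and 935 CPM. In Drop-seq, 29 of 42 barcodes in A and 12 of 34 in B lay 1 base changed or lost from another barcode of the library, so some barcodes there may share a cell. Between A and B, 26 cell barcodes recurred in CEL-seq2, 19 in MARS-seq, 0 in Drop-seq and 21 in SCRB-seq.

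Histone genes made up a far smaller share of the full-length libraries than of the tag libraries, and the gap was widest for H2A. The summed level of all 59 members was 202.8, 93.9, 169.4 and 137 CPM in Smart-seq / C1 A, Smart-seq / C1 B, Smart-seq2 A and Smart-seq2 B. In the tag libraries it was 2804 and 4594 CPM in CEL-seq2 A and B, 14383 and 9637 CPM in MARS-seq, 978 and 1877 CPM in Drop-seq, and 2111 and 1749 CPM in SCRB-seq. All 4 full-length libraries lay below all 8 tag libraries, and MARS-seq was the highest. Each of the 583 cells held at least 1 count of a histone gene.

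H2A, which pairs with H2B in the nucleosome core, took 81% to 98.7% of the histone counts in CEL-seq2 and MARS-seq, 85.5% and 71.6% in Drop-seq A and B, and 48.6% and 49.5% in SCRB-seq. In the full-length libraries it took 8.66% to 26.2%. H1, the linker histone that binds DNA between nucleosomes, was the largest type in the full-length libraries, at 29.2% to 47.6% of histone counts. These shares are not scaled to length. Per kb of summed annotated transcripts, H4 was above H1 in Smart-seq2 B, at 3.42 against 3 CPM per kb, and below it in the other full-length libraries. In tag libraries H1 took 30% and 30.2% in SCRB-seq but 1.23% and 0.419% in CEL-seq2.

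**Figure D1:**
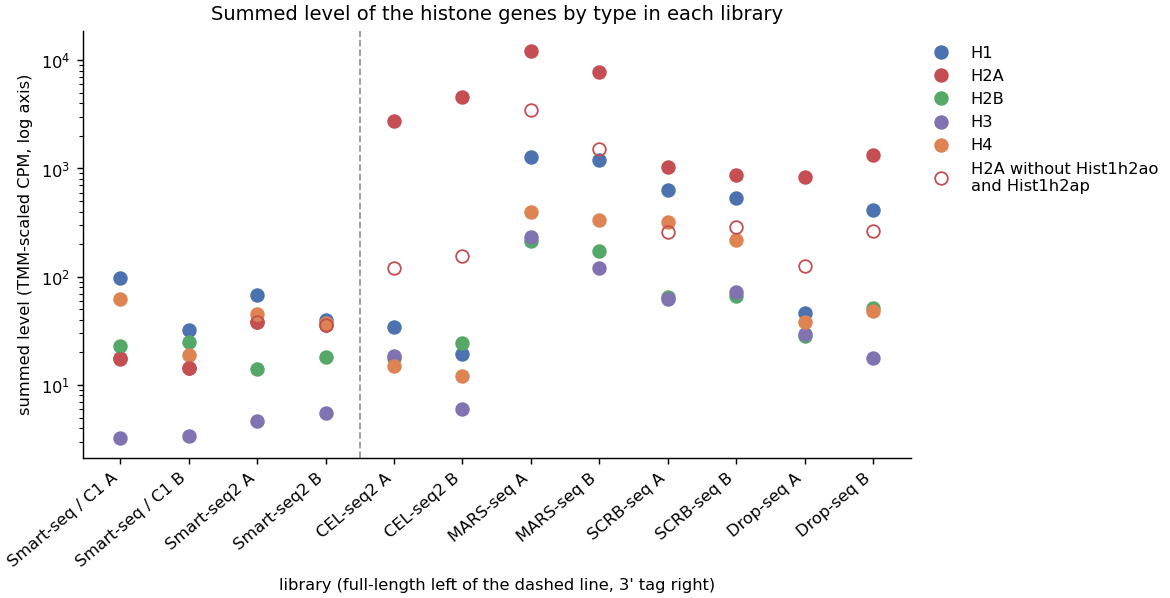
Summed level of each histone type (TMM-scaled CPM, log axis) in the 4 full-length libraries, left of the dashed line, and the 8 tag libraries, right of it. Filled points are the 5 types, and open circles are H2A without Hist1h2ao and Hist1h2ap. H2A reached at most 38 CPM in a full-length library and at least 836 CPM in a tag library.

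The H2A level of the tag libraries rested on a pair of genes. Hist1h2ao had 0.0472, 0, 0.0237 and 0.14 CPM in Smart-seq / C1 A and B and Smart-seq2 A and B, which is 7 reads in all. In the 8 tag libraries it had 20934 UMIs, at a lowest of 276.3, a median of 1103 and a highest of 7647 CPM. Hist1h2ap had 0, 0.0632, 0.119 and 0 CPM in the same full-length libraries, or 6 reads, and a lowest of 303.7, a median of 736 and a highest of 1284 CPM in the tag libraries. The groups did not overlap for either gene. Together the pair held 0.0729% of the 17837 histone reads of the full-length libraries and 69.1% of the 42436 histone UMIs of the tag libraries.

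Of the 59 members, 43 had counts enough to be tested on library sums, by edgeR's quasi-likelihood test, with Benjamini-Hochberg adjustment over all 14293 genes tested and a call at an adjusted p below 0.05. The log2 change of full-length over tag methods was -14.24 ± 0.5 (SE) for Hist1h2ao and -13.64 ± 0.53 for Hist1h2ap, with adjusted p of 3.73e-13 and 8.06e-13 by this test. Without the pair, the H2A sum was 14.3 to 37.8 CPM in the full-length libraries and 122 to 3456 CPM in the tag libraries, again without overlap.

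Most of the other tested members fell too, by less. Of the 43 tested, 35 fell in full-length relative to tag libraries, 0 rose and 8 did not pass. Of all genes tested, 23.2% fell and 25.6% rose. At an unadjusted p below 0.05, 37 members fell and 0 rose, where 7792 of the 14293 genes tested passed in either direction. DESeq2's Wald test called 37 members lower and 0 higher, and of the 14293 genes tested it called 4171 lower and 3098 higher. The median log2 change was -2.85 over the tested members and 0.21 over all genes tested. By type, 4 of 5 tested H1, 16 of 17 H2A, 5 of 8 H2B, 5 of 5 H3 and 5 of 8 H4 genes fell, with median log2 changes of -1.76, -5.62, -2.76, -3.52 and -2.23. In 13 of the 59 members every full-length library lay below every tag library, and 10 of the 13 were H2A genes. The share of all genes tested was 11.1%, a set without genes too low to test, while the 59 include such members.

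**Figure D2:**
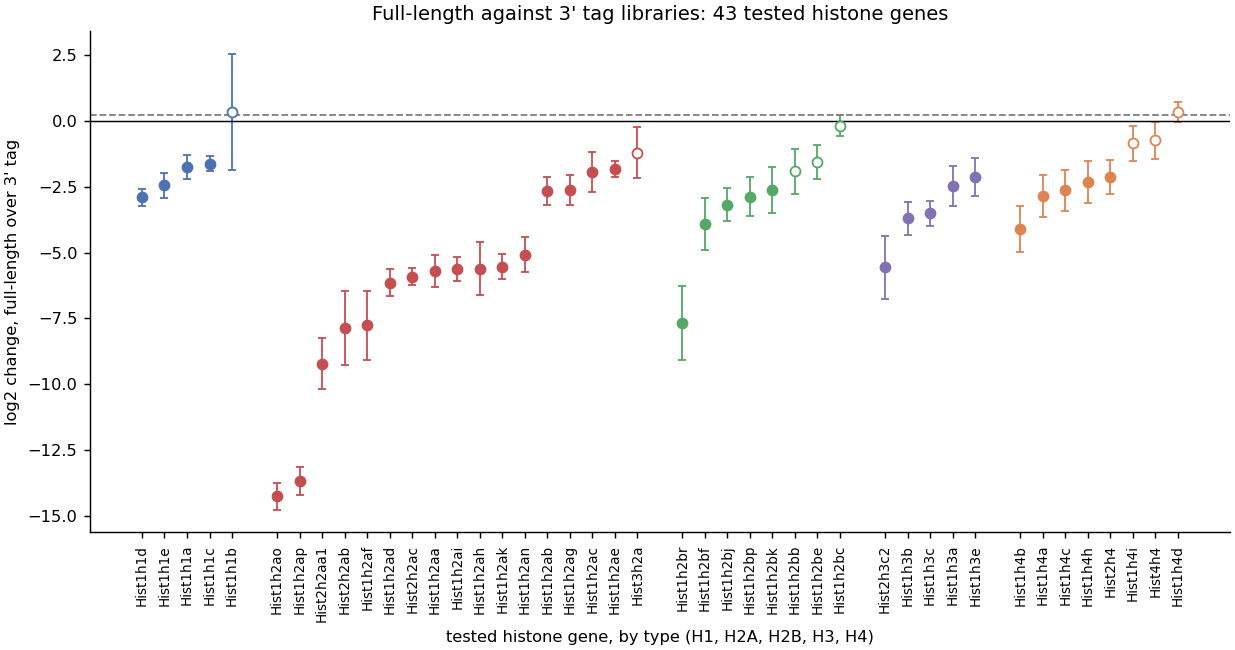
Log2 change of full-length over 3' tag methods for the 43 tested members, ordered within each type, with bars of 1 standard error. Filled points passed at an adjusted p below 0.05, the solid line is 0 and the dashed line is the median of all genes tested, 0.21. The lowest points are Hist1h2ao and Hist1h2ap at -14.24 and -13.64, and the open points near 0 include Hist1h1b and Hist1h4d.

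Short transcripts as a class were lower in the full-length libraries, so the members were set beside genes in the same bands of annotated length. The bands were chosen after the values were seen. Up to 500 nt, 16 of 16 tested members and 75.6% of 1211 genes tested fell, with median log2 changes of -5.31 and -5.71. Over 500 to 1000 nt, 12 of 15 members and 63.1% of 1373 genes fell, with medians of -2.64 and -3.33. Over 1000 to 8000 nt, 7 of 12 members and 13.3% of 10897 genes fell, with medians of -1.79 and 0.46. Members of up to 1000 nt thus had medians close to those of other short genes, while the longer members lay below the median of their band. That band is wide, and lengths are those of the longest annotated transcript, which can run far past the stem-loop. Hist1h1d, at 7425 nt, has 663 coding nt and its stem-loop 31 nt after the stop codon, so its band may not reflect the length of its mRNA. The part of length in the difference was not tested.

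Among H1 genes, Hist1h1b was the highest per length in the mean over 12 libraries, at 205 CPM per kb of the longest annotated transcript, and Hist1h1a was the next at 70.6 CPM per kb. Hist1h1b had 38.2, 10.6, 41.4 and 18.7 CPM in Smart-seq / C1 A and B and Smart-seq2 A and B. It had 0 in both CEL-seq2 libraries, 441 and 397 CPM in MARS-seq A and B, 6.56 and 322.2 CPM in Drop-seq, and 322.8 and 225.4 CPM in SCRB-seq. Its groups overlapped, the log2 change of 0.32 ± 2.2 (SE) did not pass (adjusted p = 0.948 by edgeR), and the fit includes the CEL-seq2 libraries at 0. The 0 of 4020570 CEL-seq2 UMIs allows up to 0.781 CPM on the TMM scale, which puts Hist1h1b at least 537-fold lower in CEL-seq2 than in MARS-seq.

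Hist1h1a had 14, 3.03, 3.15 and 4.94 CPM in Smart-seq / C1 A and B and Smart-seq2 A and B, and a lowest of 0.754, a median of 37 and a highest of 222 CPM in the tag libraries. Both CEL-seq2 libraries, at 1.68 and 0.754 CPM, lay below every full-length library. The log2 change was -1.76 ± 0.45 (adjusted p = 0.0036 by edgeR), and the call was lost without CEL-seq2 A, where the change was -1.24. Hist1h1c, Hist1h1d and Hist1h1e also fell, by 1.63, 2.91 and 2.45 on the log2 scale, with adjusted p of 0.000161, 8.26e-07 and 0.000522. Hist1h1t, the testis-specific H1 gene, had 15 reads and 4 UMIs in all and was not tested. The exons of Hist1h1e overlap Hist1h2be on the same strand in the annotation, so their counts are uncertain.

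Hist1h2bj and Hist1h2bc were the highest H2B genes per length, at 18.4 and 13 CPM per kb. Hist1h2bj had 0.85, 1.26, 0.711 and 1.23 CPM in the full-length libraries in the same order, and a lowest of 1.68, a median of 10.8 and a highest of 26.9 CPM in the tag libraries. No library overlapped, and the log2 change was -3.19 ± 0.63 (adjusted p = 0.000387 by edgeR). Hist1h2bc behaved differently, with 16, 15.4, 7.09 and 7.39 CPM in the full-length libraries and a lowest of 2.52, a median of 10.7 and a highest of 39.8 CPM in the tag libraries. The groups overlapped throughout and the log2 change of -0.20 ± 0.4 did not pass. Its annotated transcript runs 8246 bases of genome past the stem-loop.

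All 5 tested H3 genes fell. The Hist1h3a call was lost without Smart-seq2 A or B, CEL-seq2 A, MARS-seq A or SCRB-seq A. The Hist1h3e call was lost under the replicate block (replicate letter as a term) and without Smart-seq / C1 A, Smart-seq2 A or B, CEL-seq2 A, MARS-seq A, SCRB-seq A or Drop-seq A, and its log2 change of -2.13 was 0.12 without the last of these. Hist1h3c had 0.803, 0.885, 1.47 and 2.04 CPM in the full-length libraries, and a lowest of 1.89, a median of 16.8 and a highest of 85.4 CPM in the tag libraries. Hist1h3b averaged 0.474 ± 0.201 CPM over the full-length libraries (SD, n = 4), against 16.6 ± 17.3 CPM over the tag libraries (n = 8). CEL-seq2, at 0.84 and 0.377 CPM, was the lowest and MARS-seq, at 37.4 and 43.4 CPM, the highest. Their log2 changes were -3.52 ± 0.46 and -3.71 ± 0.63, with adjusted p of 4.75e-06 and 0.000103 by edgeR.

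Among H4 genes, Hist1h4d was far above the rest, at 72.4 CPM per kb against 12.6 for Hist1h4h. It had 51.1, 12.6, 34.8 and 24 CPM in Smart-seq / C1 A and B and Smart-seq2 A and B. In the tag libraries it had 4.2 and 1.51 CPM in CEL-seq2 and 2.19 and 4.83 CPM in Drop-seq, but 293.5 and 233 CPM in MARS-seq and 196 and 130.5 CPM in SCRB-seq. The full-length libraries lay between these pairs of tag methods, and the log2 change of 0.33 ± 0.38 did not pass (adjusted p = 0.506 by edgeR). Hist1h4h fell, at 0.614, 0.442, 1.38 and 1.28 CPM in full-length libraries and a median of 8.66 CPM in tag libraries, with a log2 change of -2.32 ± 0.8 (adjusted p = 0.0234). Over the alternatives this change ran from -2.64 to -0.91, and the call was lost without Smart-seq / C1 B, Smart-seq2 A or B, CEL-seq2 A, MARS-seq A, SCRB-seq A or Drop-seq B, and without a filter on low counts.

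Members outside the Hist1 cluster were mostly low. Hist2h2ac had 0.614, 0.442, 1.26 and 0.949 CPM in the full-length libraries. In the tag libraries its lowest was 4.37, its median 40.7 and its highest 514 CPM, with no overlap, and the log2 change was -5.91 ± 0.34 (adjusted p = 7.93e-11 by edgeR). Hist2h2aa1, Hist2h2ab and Hist2h3b had 202, 44 and 34 tag UMIs and no full-length read. Against a floor of 3 reads over the 4 full-length libraries, their counts were at least 1003-fold, 253-fold and 207-fold lower there. The same held for Hist1h2br, Hist1h2bq and Hist1h4m, at least 272-fold, 59.6-fold and 127-fold lower. Hist2h2aa1 and Hist2h3b share 89.8% and 80.6% of their words with Gm20634, and Hist1h4m shares 91.7% with Hist1h4n. Reads of such genes may have been dropped in counting, so these are bounds on counts and not on RNA. These 6 members compare with 2.29% of the 26619 genes with a count that had no full-length read and more than 3 tag UMIs. Hist2h2aa2, which shares 100% of its words with Hist2h2aa1, had 0 counts in every library. So did Hist2h3c1, which shares 100% of its words with Gm20634 and overlaps it on the same strand.

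Hist2h3c2 had 21 full-length reads and 37 tag UMIs and fell, with a log2 change of -5.56 ± 1.2 that did not pass without Drop-seq B (-3.86). Hist2h4 fell too, with 0.52, 0.885, 1.75 and 2.99 CPM in full-length libraries and a median of 1.98 CPM in tag libraries. Only SCRB-seq, at 62.9 and 46.3 CPM, and MARS-seq B, at 23.4 CPM, stood above 3 CPM. Its log2 change of -2.14 ± 0.64 (adjusted p = 0.01 by edgeR) ran from -2.28 to -0.58 over the alternatives and lost its call without Smart-seq2 A, CEL-seq2 B, MARS-seq B or Drop-seq A. Hist3h2a and Hist4h4 did not pass, with log2 changes of -1.22 ± 0.96 and -0.75 ± 0.71. Hist2h2be had 61 reads and 3 UMIs, and Hist3h2ba had 120 reads and 30 UMIs, and neither was tested.

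The level of a member in the tag libraries was set beside the adenines before its stem-loop. Over the 56 members with a stem-loop, the Spearman correlation of the number of adenines in those 20 bases with the mean CPM was 0.18 and 0.19 for the full-length methods Smart-seq / C1 and Smart-seq2. It was 0.39 for CEL-seq2, 0.58 for MARS-seq, 0.50 for Drop-seq and 0.43 for SCRB-seq. Within the 16 H2A genes other than Hist1h2ao and Hist1h2ap it was 0.54 and 0.55 in the full-length methods, and 0.47, 0.69, 0.66 and 0.51 in the tag methods in the same order. The points share libraries and near-identical sequence, and these values are a description. Transcript length gave 0.37 in full-length and 0.05 in tag libraries over the same 56 members.

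Adenine-rich stretches elsewhere in a transcript were seen beside low and high counts. Hist1h2ac has a run of 15 adenines in its annotated transcript, 1187 nt from the end. It averaged 1.54 ± 1.46 CPM in full-length libraries and 8.16 ± 6.26 CPM in tag libraries (SD). Its exon overlaps Gm24991 on the same strand, so its counts are uncertain. Hist1h1d has 18 adenines in a window of 20 bases, 1814 nt from the end. It was high in MARS-seq and low in CEL-seq2, as given below. Hist1h2ae, with 13 adenines before the stem-loop, had 11, 6.76, 23.8 and 21 CPM in the full-length libraries, the highest H2A level there. In the tag libraries it had 5.04 and 12.5 CPM in CEL-seq2 but 475 and 416 CPM in MARS-seq. Hist1h2ag, which shares 73% of its words with Hist1h2ao, has 7 adenines there and had a highest tag level of 24.9 CPM.

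**Figure D3:**
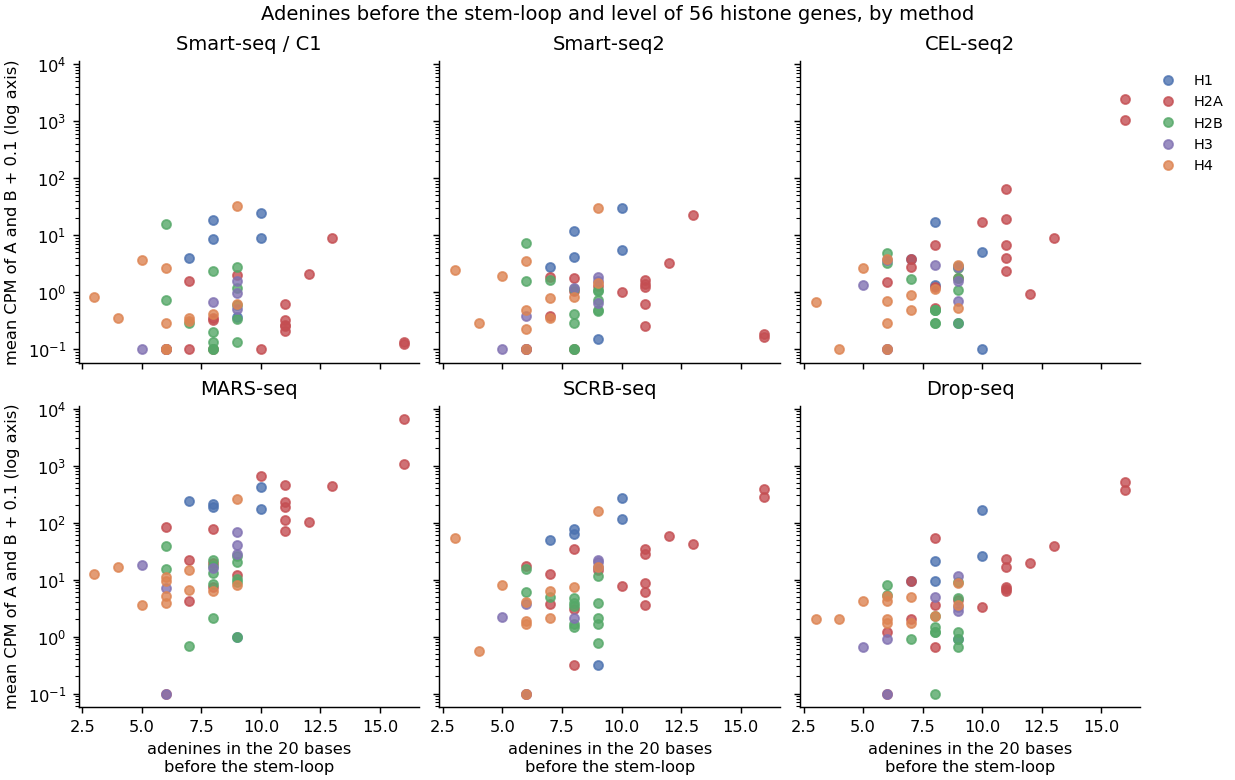
Number of adenines in the 20 bases before the stem-loop (horizontal axis) and mean CPM of replicates A and B plus 0.1 (vertical log axis) for 56 members in each method, coloured by histone type. The 2 points at 16 adenines are Hist1h2ao and Hist1h2ap, which are the highest of the tag panels and near the floor of the full-length panels.

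In the RefSeq promoters of the GRCm38.p6 assembly, which run from 250 bases before to 50 after the gene start, 55 members were found, with 1 promoter taken per gene. The letters CCAAT, searched on both strands, were in the promoters of all 6 H1, all 18 H2A, all 13 H2B and all 6 H3 genes found, but of 3 of 12 H4 genes, against 37.9% of 27025 promoters. TATAAA on the gene's strand was in 27 of the 55, or 49.1%, against 8.88% of all promoters. GGGCGG on both strands was in 41.8% of members and 35.9% of all promoters. Facing gene pairs that share a promoter and near-identical copies are counted separately, and a match is not a binding site.

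Among the tag methods, most tested histone genes were lower in CEL-seq2 than in MARS-seq. Of the 43 tested members, 28 fell in CEL-seq2 relative to MARS-seq and 0 rose, against 12.4% lower and 11% higher of all genes tested. At an unadjusted p below 0.05, 31 were lower and 0 higher, where 5069 of the 14293 genes tested passed in either direction. In 48 of the 59 members, tested or not, both CEL-seq2 libraries lay below both MARS-seq libraries, against 27.2% of the genes tested. The median log2 change was -3.59 for members and 0.19 for all genes. All 5 tested H1 genes fell, as did 12 of 17 H2A, 4 of 8 H2B, 3 of 5 H3 and 4 of 8 H4 genes. The Hist1h1b call, with CEL-seq2 at 0, was lost without a filter, under the replicate block, and without any 1 of the Smart-seq / C1, Smart-seq2, CEL-seq2 or MARS-seq libraries. The Hist1h4b call was lost without a filter and without any 1 of the libraries other than Smart-seq / C1. Without MARS-seq A or either CEL-seq2 library fewer members passed, and fewer of all genes passed too.

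Cell type markers also differed between CEL-seq2 and MARS-seq. The 8 primitive endoderm markers summed to 491 and 454 CPM in CEL-seq2 A and B, with 1 and 0 of them at 0, against 151 and 228 CPM in MARS-seq A and B, with 7 and 6 at 0. Both tested markers of this list passed as higher in CEL-seq2. Sparc, which makes up most of the sum, had 456 and 435 CPM in CEL-seq2 against 151 and 227 CPM in MARS-seq, and Dab2 had 12.6 and 11.7 CPM against 0 in both. The 10 embryonic stem cell markers summed to 3329 and 3505 CPM in CEL-seq2 and 5699 and 7115 CPM in MARS-seq, with 2 higher and 3 lower. The fibroblast markers summed to 935 and 906 CPM against 768 and 898.5 CPM, and none of the 3 tested passed. The part of these differences in the histone result was not tested.

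Hist1h1d showed the smallest p of this comparison, at 5.04 and 2.26 CPM in CEL-seq2 A and B and 251 and 231 CPM in MARS-seq A and B. Its log2 change was -6.17 ± 0.58 (adjusted p = 1.03e-06 by edgeR). Hist1h2ae, at -5.57 ± 0.56 (adjusted p = 2.08e-06), was the next. Hist1h2ao fell by 1.42 ± 0.39 on the log2 scale, at 1754 and 3091 CPM in CEL-seq2 and 7647 and 5309 CPM in MARS-seq, and its call was lost without CEL-seq2 A or MARS-seq A. Hist1h2ap had 843 and 1284 CPM in CEL-seq2 against 1162 and 972 CPM in MARS-seq, which overlapped. Outside the pair the members summed to 207.4 and 218 CPM in CEL-seq2, against 5575 and 3355 CPM in MARS-seq.

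In vitro transcription methods against PCR methods gave 6 higher and 2 lower of 43 members, against 9.14% and 12.9% of all genes tested, with medians of 0.14 and -0.08. All 6 higher members were H2A genes: Hist1h2ao, Hist2h2ac, Hist1h2af, Hist1h2aa, Hist1h2an and Hist1h2ap. The call of Hist1h2ap was lost without Drop-seq A, that of Hist1h2aa without MARS-seq A, and that of Hist1h2an without CEL-seq2 A, MARS-seq A or B, SCRB-seq A or Drop-seq A. Hist1h2ao had 1754, 3091, 7647 and 5309 CPM in CEL-seq2 A and B and MARS-seq A and B, and 292, 453, 298 and 276.3 CPM in Drop-seq A and B and SCRB-seq A and B. The groups did not overlap, and the log2 change was 3.60 ± 0.3 (adjusted p = 7.75e-07 by edgeR). In the same comparison the endoderm marker Sparc and the fibroblast marker Vim were higher, by 1.01 ± 0.29 and 2.65 ± 0.41 on the log2 scale. The other tested markers of these lists, Dab2 at -2.11 ± 3.2, Fn1 at 0.60 ± 0.23 and Thy1 at 0.67 ± 1.1, did not pass. Of the 10 embryonic stem cell markers, 4 were higher and 2 lower. The part of these markers in the histone result was not tested.

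Hist2h2ac had 50.4, 76.2, 514 and 413.5 CPM in the in vitro transcription libraries and 4.37, 8.06, 31 and 24.1 CPM in the PCR libraries, again without overlap, with a log2 change of 3.74 ± 0.32 (adjusted p = 7.99e-07). Hist1h2af rested largely on MARS-seq A, at 1227 CPM against 77.3 CPM in MARS-seq B, 16.8 and 17.4 CPM in CEL-seq2, and 3.22 to 7.87 CPM in the PCR libraries. The excess in MARS-seq A was spread over cells, with UMIs in 27 of 29 cells, a median of 21 and a highest of 66. Hist1h2ab had 1.68 and 0 CPM in CEL-seq2 and 124.5 and 79.7 CPM in MARS-seq, against 15.3 and 24.2 CPM in Drop-seq and 52.7 and 63.9 CPM in SCRB-seq. Both MARS-seq libraries lay above every PCR library and both CEL-seq2 libraries below, so its log2 change of -2.15 ± 0.55 (adjusted p = 0.0103 by edgeR), a difference of mean log levels over methods, rests on CEL-seq2. Hist1h4h had 0.84 and 0 CPM in CEL-seq2 and 12.5 and 3.52 CPM in MARS-seq, against 7.66 and 9.67 CPM in Drop-seq and 18.2 and 14.8 CPM in SCRB-seq, which overlapped, with a log2 change of -2.97 ± 0.9 (adjusted p = 0.0246). The Hist1h2ab call was lost without CEL-seq2 B, and that of Hist1h4h without CEL-seq2 B, MARS-seq B, SCRB-seq A, Drop-seq A or Drop-seq B.

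The division of UMIs within the pair also differed between the in vitro transcription and the PCR methods. Hist1h2ao took 67.5% (95% exact binomial interval 65.9% to 69.2%) and 70.6% (69.8% to 71.5%) of the pair's UMIs in CEL-seq2 A and B, and 86.8% (85.8% to 87.7%) and 84.5% (83.5% to 85.5%) in MARS-seq. In the PCR methods it took 41.2% (37.4% to 45.1%) and 41.9% (38.1% to 45.7%) in Drop-seq, and 39% (36.7% to 41.3%) and 47.6% (44.8% to 50.5%) in SCRB-seq. The intervals cover counting error only. All 4 in vitro transcription libraries lay above all 4 PCR libraries, and both CEL-seq2 libraries lay below both MARS-seq libraries. Amplification cannot be told apart here from other differences between the methods. With sequences this close, the part of read assignment was not tested.

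Smart-seq / C1 against Smart-seq2 gave 3 lower and 0 higher of 43 members, against 6.82% and 8.76% of all genes tested. The 3 were the H2A genes Hist1h2ak, Hist1h2ai and Hist1h2aa. The share of members that was lower was thus close to that of all genes. At an unadjusted p below 0.05, 4282 of the 14293 genes tested passed in either direction, against 10 of the 43 members. Hist1h2ak had 0.236 and 0.253 CPM in Smart-seq / C1 A and B and 1.8 and 1.56 CPM in Smart-seq2 A and B, a log2 change of -2.73 ± 0.67 (adjusted p = 0.0106 by edgeR). Hist1h2ai had 0.189 and 0.253 CPM against 0.925 and 1.67 CPM, a log2 change of -2.51 ± 0.67 (adjusted p = 0.0164). The Hist1h2ak call was lost without Smart-seq2 A, that of Hist1h2ai without Smart-seq / C1 A or Smart-seq2 B, and that of Hist1h2aa without Smart-seq / C1 B or either Smart-seq2 library. In the fit to all libraries, the 10 members at an unadjusted p below 0.05 were all lower. Without Smart-seq2 A or B fewer members passed the adjusted threshold, and fewer of all genes passed too.

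Drop-seq against SCRB-seq gave 5 lower and 0 higher of 43 members, against 0.483% lower and 1.03% higher of all genes tested. Over all genes 147 were higher and 69 lower, or 280 and 45 with DESeq2's size factors. At an unadjusted p below 0.05, 10 members were lower and 0 higher, where 2590 of the 14293 genes tested passed in either direction. The 5 members were Hist1h4d, Hist1h1d, Hist1h1a, Hist2h4 and Hist2h2ac. Hist1h4d had 2.19 and 4.83 CPM in Drop-seq A and B against 196 and 130.5 CPM in SCRB-seq A and B, a log2 change of -5.62 ± 0.76 (adjusted p = 0.00103 by edgeR). Hist1h1d had 5.47 and 12.9 CPM against 55.8 and 44.4 CPM, a log2 change of -2.51 ± 0.54 (adjusted p = 0.0255). The Hist1h4d call was lost without Drop-seq A, and those of Hist1h1d and Hist1h1a without any 1 of the Drop-seq, SCRB-seq or MARS-seq libraries. The Hist2h4 call was lost without any 1 of the Drop-seq or SCRB-seq libraries. The Hist2h2ac call was lost without any 1 of the Drop-seq, SCRB-seq, MARS-seq or Smart-seq2 libraries, and without cells above 2 times the median count. Hist1h1b differed between the Drop-seq replicates themselves, with 6 UMIs in 5 of 42 cells in A and 200 UMIs in 28 of 34 cells in B. Without any 1 of the Drop-seq, SCRB-seq or MARS-seq libraries fewer members passed, and fewer of all genes passed too.

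Genes that act with the histones were counted in the same full-length against tag comparison. Of 20 genes of histone mRNA processing in the table, 19 were tested and 10 rose, against 25.6% of all genes tested, and the others did not pass. The median log2 change of the list was 0.65, where genes of over 1000 to 8000 nt had 0.46. Slbp, the stem-loop binding protein, averaged 235 ± 62.6 CPM over the full-length libraries (SD, n = 4) and 114 ± 49.3 CPM over the tag libraries (n = 8), a log2 change of 1.17 ± 0.21 (adjusted p = 0.000184 by edgeR). Cpsf3, which cleaves the histone pre-mRNA, rose by 1.44 ± 0.23 on the log2 scale (adjusted p = 5.02e-05). Srrt, the highest of the list per length, had a log2 change of -0.10 ± 0.19 and did not pass.

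Of 21 histone chaperone genes, 12 rose and 2 fell, where 25.6% of all genes rose and 23.2% fell, and the median log2 change was 0.56. The acetyltransferase Hat1 and the chromatin assembly subunit Chaf1b rose by 1.56 ± 0.21 and 1.47 ± 0.24 on the log2 scale, with adjusted p of 6.2e-06 and 6.59e-05 by edgeR. Npm1, the highest of this list per length, had a log2 change of -0.25 ± 0.3 and did not pass.

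The replacement histones, whose mRNAs carry a poly(A) tail and are made outside S phase as well as in it, had 1 of 11 higher and 6 lower. Of all genes tested, 25.6% were higher and 23.2% lower. These 11 genes were not set beside genes of like annotated length, and short genes as a class were lower. H2afz, the H2A.Z gene, averaged 90.4 ± 36.8 CPM in full-length and 605 ± 480 CPM in tag libraries (SD), a log2 change of -2.54 ± 0.27 (adjusted p = 4.23e-07 by edgeR). The linker variant H1fx averaged 1.22 ± 0.841 CPM in full-length and 41.3 ± 18.9 CPM in tag libraries, a log2 change of -4.98 ± 0.62 (adjusted p = 3.68e-06).

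Of 44 G1/S genes 32 rose and 3 fell, and of 55 G2/M genes 32 rose and 1 fell, against 25.6% and 23.2% of all genes. Their median log2 changes were 0.92 and 0.73, against 0.21 for all genes and 0.46 for genes of over 1000 to 8000 nt. The flap endonuclease gene Fen1 fell by 3.17 ± 0.35 on the log2 scale and the helicase gene Mcm4 rose by 1.55 ± 0.19, with adjusted p of 5.08e-07 and 1.67e-06 by edgeR. Pcna, the replication clamp and the highest of the G1/S list per length, fell by 1.11 ± 0.21 (adjusted p = 0.000296). Hmgb2 fell by 2.86 ± 0.25 and Lbr rose by 1.76 ± 0.22, with adjusted p of 3.59e-08 and 3.69e-06, while Cks1b, the highest of the G2/M list per length, had a log2 change of 0.28 ± 0.19 and did not pass.

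Among the cells of a library, histone levels were lower where G2/M genes were higher. Each cell was thinned to 10000 counts, the members were summed, and a list's level was the mean over its genes of log2(thinned count + 1). The Spearman correlation of the histone and G2/M levels was negative in 11 of 12 libraries, with a mean of -0.349, an SD of 0.268 and a range of -0.735 to 0.198. It was -0.236, -0.101, -0.365 and -0.14 in Smart-seq / C1 A and B and Smart-seq2 A and B. In tag libraries it was 0.198 and -0.682 in CEL-seq2 A and B, -0.559 and -0.735 in MARS-seq, -0.478 and -0.354 in Drop-seq, and -0.207 and -0.529 in SCRB-seq. CEL-seq2 A was the exception. With cells thinned to 5000 counts it was negative in 10 libraries. The cells of a library share their depth, batch and the thinning, and these values carry no p.

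The G1/S list showed no such relation. Its correlation with the histone level averaged 0.0618 with an SD of 0.215, was positive in 7 and negative in 5 libraries, and ran from -0.297 in MARS-seq B to 0.557 in CEL-seq2 A. Without CEL-seq2 A the mean was 0.0168. The number of positive libraries was 5 with CPM from all counts and 8 with cells thinned to 5000 counts. In the full-length libraries it was 0.0389, 0.0164, 0.308 and -0.0429, and the Smart-seq2 A value was 0.18 over 20 thinning draws and 0.0376 at 5000 counts. There the thinned cells held a median of 2, 1, 2 and 1 histone reads, and 13 of 69, 27 of 61, 19 of 80 and 30 of 77 cells held 0, so these correlations rest on few reads. In the tag libraries the median ran from 7.5 UMIs in Drop-seq A to 116 UMIs in MARS-seq A.

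**Figure D4:**
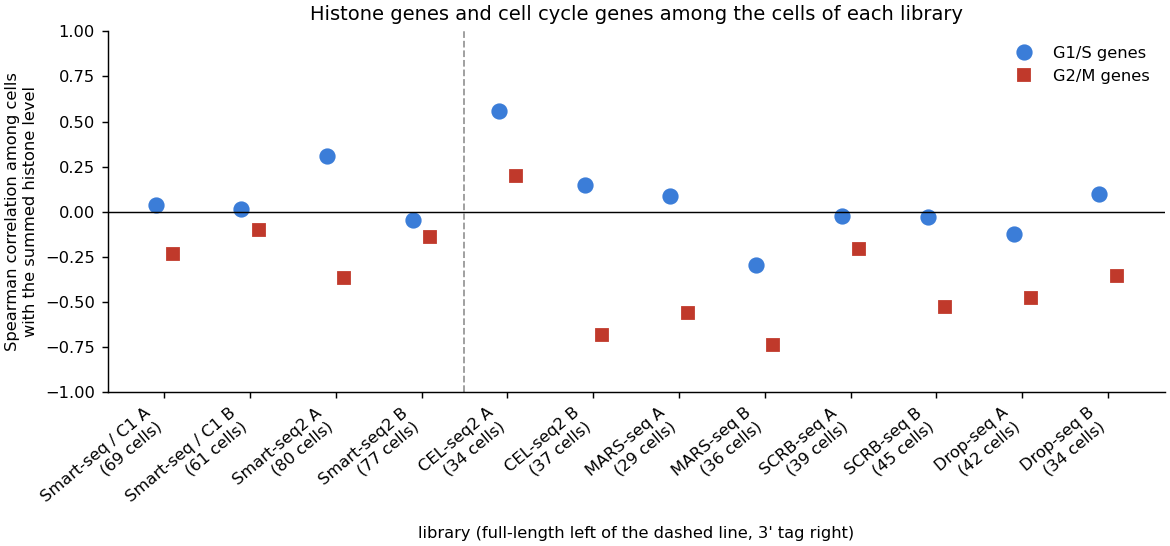
Spearman correlation, among the cells of each library, of the summed histone level with the G1/S level (circles) and the G2/M level (squares), for 4 full-length libraries left of the dashed line and 8 tag libraries right of it. Squares lie below 0 in every library but CEL-seq2 A, and circles lie on both sides of 0.

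Single genes of the lists showed which of them went with the histones. In the 8 tag libraries, Pcna was positive in 8 of 8, with a mean correlation of 0.306 and a range of 0.023 to 0.640. Prim1, a primase subunit, and Mcm4 followed with means of 0.155 and 0.149, positive in 6 of 8 each. Of the 40 G1/S genes with a count in at least 5 cells of every tag library, 26 had a positive and 14 a negative mean. Of the 55 G2/M genes, 2 had a positive and 53 a negative mean. The most negative were Cenpa, the centromeric H3 variant gene, with a mean of -0.349 and negative in 8 of 8, and Ube2c, with a mean of -0.344 and negative in 7 of 8. The counts of positive and negative means in these lists were not set beside those of all genes, so they have no background here.

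**Figure D5:**
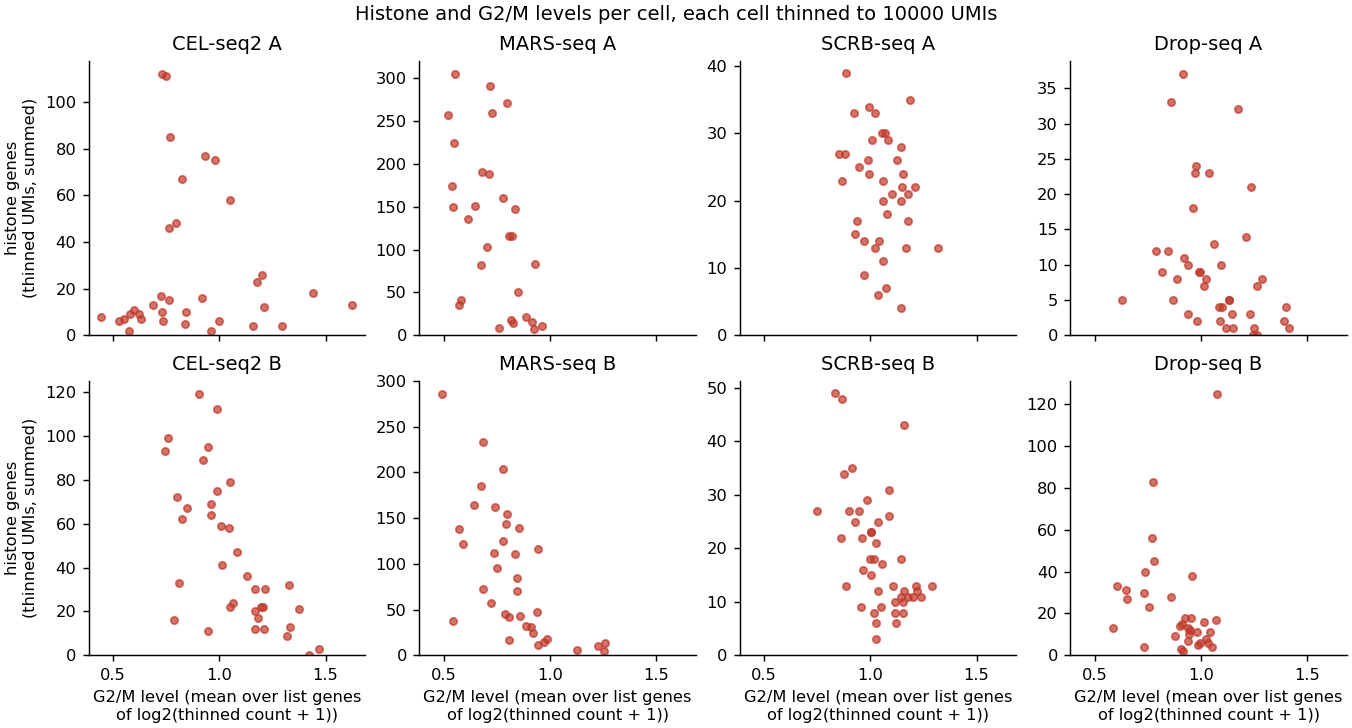
Histone level (summed UMIs) against the G2/M level (mean over the list of log2(thinned count + 1)) of each cell in the 8 tag libraries, after thinning to 10000 UMIs. High histone counts sit at low G2/M levels in MARS-seq B (-0.735) and CEL-seq2 B (-0.682), while the highest cells of CEL-seq2 A are spread over the middle of its range (0.198).

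Histone levels varied widely between cells. The upper quartile of the histone share was 6.31 and 3.72 times the lower quartile in CEL-seq2 A and B, 5.02 and 4.26 times in MARS-seq, 3.75 and 4.98 times in Drop-seq, and 1.56 and 2.83 times in SCRB-seq. Hist1h2ao was seen in every cell of CEL-seq2, MARS-seq and SCRB-seq and in 38 of 42 and 31 of 34 cells of Drop-seq. Its UMIs per cell ran from 17 to 556 with a median of 208 in CEL-seq2 B, and from 5 to 375 with a median of 141 in MARS-seq A.

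The correlation of H1 with H2A levels among cells was -0.129 and -0.0934 in CEL-seq2, where H1 took 1.23% and 0.419% of histone counts, and 0.625 and 0.753 in MARS-seq. It was 0.096 and 0.517 in Drop-seq, and 0.405 and 0.323 in SCRB-seq. In the full-length libraries it was -4.24e-05, -0.0223, 0.111 and 0.228 after thinning, but 0.305, 0.272, 0.649 and 0.544 with CPM from all counts. H2A with H3 was -0.00556 and 0.564 in MARS-seq A and B after thinning, and 0.32 and 0.487 with CPM from all counts. Hist1h2ao and Hist1h2ap followed each other at 0.913 and 0.929 in CEL-seq2 and 0.972 and 0.958 in MARS-seq, against 0.794 and 0.795 in Drop-seq and 0.43 and 0.614 in SCRB-seq, with the shared sequence noted above. With CPM from all counts CEL-seq2 A and B had 0.924 and 0.986, MARS-seq had 0.968 and 0.974, Drop-seq had 0.933 and 0.889, and SCRB-seq had 0.93 and 0.891, so the gap between methods was smaller without thinning. Hist1h1b, which differs from Hist1h2ao in sequence, correlated with it at 0.434 and 0.729 in MARS-seq, 0.401 in Drop-seq B, and 0.222 and 0.215 in SCRB-seq. In Drop-seq A, with 6 Hist1h1b UMIs, the value was 0.113 but -0.0716 over 20 thinning draws and -0.0855 with CPM from all counts.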

How the data were processed

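The table holds whole-number counts per gene and cell. Per the text deposited with it, UMI data were processed with the Drop-seq pipeline and reads were mapped with STAR 2.4.0 at default settings; per the submitters' processing notes, bcl2fastq and the mm10 genome were used. The counting tool for Smart-seq reads, its annotation and the read length are not given in the sources used here, and neither is any use of strand. The authors deposited counts for 583 cells, and 0 columns were left unmapped. The members and gene lists were chosen with earlier results of these data known.

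Counts were summed per library (method and replicate letter) and fitted with edgeR 4.0.16 (R 4.3.3): genes kept by filterByExpr, TMM scaling, 1 mean per method over 12 libraries, robust quasi-likelihood test, 6 residual degrees of freedom, common biological coefficient of variation 0.418. Standard errors are the log2 change over the root of F. The fitted change is between means over methods of log levels. The test was first tested on simulated data. CPM uses TMM-scaled totals of mouse genes. Symbols, lengths and stop codons came from GENCODE M21, and stem-loops were searched by structure (a stem of 6 bases, a loop of 4) in the RefSeq GRCm38.p6 genome. Each cell was thinned once to 10000 counts; all 583 cells qualified, and no doublet caller was run. Named members were the 2 highest per kb of each type, the 2 smallest p in each direction of each comparison, every H1 gene and every gene outside Hist1; from each companion list came the 2 smallest p in full-length against tag and the highest per kb. Other genes were named after their values were seen: Hist1h2ag and Hist1h2ac for their sequence, and Hist1h2aa, Hist1h2af, Hist1h2an and others to complete a count. Alternatives were DESeq2 1.42.0 and its size factors, no filter, a replicate block, leaving out each library or cells above 2 times the median count, and other thinning.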

Additional observations from a re-analysis of the deposited data

Results flagged for a closer look

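A library was marked where its gap to the nearest other was large for the range of its group, by Dixon's ratio at the 95% level, over 65 groups of 4 full-length or 8 tag libraries. Chance marks about 1 in 20 groups, and 5 were marked. Hist1h1c stood at 25.2 CPM in Smart-seq / C1 A, with the next full-length library at 12.7 CPM. Hist1h2ai stood at 258 CPM in MARS-seq A, with the next tag library at 111 CPM. Hist2h2ab stood at 28.5 CPM in MARS-seq A, with the next at 10.5 CPM. Hist2h2be stood at 1.17 CPM in MARS-seq B, with the next at 0.463 CPM. Hist2h3b stood at 35.6 CPM in MARS-seq A, with the next at 4.17 CPM.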

How the results depend on the processing

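Full-length against tag gave 28 to 39 members past the threshold on leaving out each library, in vitro transcription against PCR 6 to 8, Smart-seq / C1 against Smart-seq2 1 to 4, CEL-seq2 against MARS-seq 16 to 32, and Drop-seq against SCRB-seq 0 to 8. Where a method then had 1 library, that library was assumed to vary like the others. The number of calls over all genes also changed with the library left out, so these ranges are not particular to the histone genes. Smart-seq / C1 against Smart-seq2 gave 5 members by DESeq2's Wald test and 5 without a filter on low counts, against 3. In that comparison the Wald test called 1778 higher and 1310 lower of 14293 genes. Without a filter, 1328 were higher and 1155 lower of 26619 genes. The other settings left each count of members within 1.5 times. DESeq2's size factors gave a median log2 change of all genes of 0.0717 for full-length against tag (0.213 with TMM), 0.0156 for CEL-seq2 over MARS-seq (0.191) and 0.113 for Drop-seq over SCRB-seq (-0.0903), and called 36 members lower and 0 higher for full-length against tag. With these size factors, 3546 of 14293 genes were lower and 2929 higher for full-length against tag. Replicate letters did not pair the libraries (Spearman correlation of A minus B between methods -0.122 to 0.104), and the replicate block gave 33, 8, 3, 27 and 5 members in the order above. Of 1341 alternative log2 changes of the 79 calls of histone genes over the 5 comparisons, 157 kept their direction but missed the threshold, 149 of them on leaving out a library. Hist1h3e in full-length against tag changed sign, to 0.12 without Drop-seq A, and ran from -2.34 to 0.12 on leaving out a library. The mean correlation with G1/S genes ran from 0.0168 to 0.0945 and that with G2/M genes from -0.399 to -0.314 on leaving out a library; without Hist1h2ao and Hist1h2ap, a setting added after the data were seen, they were 0.018 and -0.325. Of 30 type levels, 1 moved by more than 1 SD as a mean over cells, H2B in SCRB-seq, to 64.2 CPM. Full-length libraries held few histone reads per cell, which limits their correlations.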
